A study of Homo sapiens with 6 samples.

Results

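The lysosome is the acidic organelle in which cells break down proteins, glycans and lipids. A proton pump, the vacuolar H+-ATPase (V-ATPase), acidifies it: a peripheral V1 sector hydrolyses ATP in the cytosol and a membrane-embedded V0 sector carries protons into the lumen. Luminal hydrolases work at the acidic pH the pump sets up, and proteins of the limiting membrane protect it and export the products. Many lysosomal genes carry the CLEAR element, an E-box bound by the transcription factors TFEB and TFE3. The members described here are 48 genes named as a list: 18 for V-ATPase subunits and accessory proteins, 10 for lumenal proteases, 10 for other hydrolases and their cofactors, 7 for membrane and lipid transfer proteins, and 3 for ion channels and exchangers. They were looked up by symbol among the 36458 gene symbols of the count table, and all 48 were found and passed the filter on low counts, which left 17331 genes.

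The series is RNA-seq of polyadenylated transcripts from DMS114, a cultured cell line of human small cell lung cancer. Cells received β-alanine, a non-proteinogenic amino acid, at 2.5 mM for 48 h, and control cells received an equal volume of vehicle. Each group had 3 libraries, between 14433801 and 32909568 counts deep. The labels do not say whether the libraries came from separate cultures, so p-values measure the spread between these libraries, which may be technical.

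Of the cell type markers, the subtype factor YAP1 averaged 129 ± 5.82 CPM (counts scaled to a common library size) in β-alanine libraries and 124 ± 4.91 CPM in control libraries (SD, n = 3 each), whereas the subtype factor POU2F3 stayed under 1 CPM in every library. Summed CPM of 4 neuroendocrine markers was 109.7 to 121 in β-alanine libraries and 78.8 to 87.1 in control libraries. That sum is mostly SYP and CHGA, while NCAM1 fell (1.48 ± 0.107 CPM after β-alanine and 2.32 ± 0.291 CPM in controls, edgeR adjusted p = 0.0156, Benjamini-Hochberg) and INSM1 was under 1 CPM in every library. The sum of 4 fibroblast markers, led by COL3A1, was 855 to 953 in β-alanine libraries and 1081 to 1125 in control libraries, while PDGFRB among them rose (28.0 ± 1.79 CPM after β-alanine and 24.6 ± 0.787 CPM in controls, edgeR adjusted p = 0.0482, Benjamini-Hochberg). The sum of 3 epithelial markers, mostly KRT18, was 11.6 to 14.3 in β-alanine libraries and 8.64 to 9.57 in control libraries. Of 6 markers of macrophages, a lysosome-rich cell type, CSF1R and CD163 had no count in any library, and the sum ran from 0.365 to 0.929 CPM after β-alanine and from 0.612 to 0.811 CPM in controls. The libraries are of a cultured line, so the marker names describe genes and do not show that other cell types were present. In bulk RNA, fewer cells of a type and less RNA per cell cannot be told apart, and the part of these shifts in the lysosomal values was not tested. β-alanine library 1 stood apart: its score on principal component 1 was 9.13, that of β-alanine libraries 2 and 3 was 23.5 and 23.6, with the controls between -20.02 and -16.7. It was also the shallowest library, with 14433801 counts. β-alanine libraries 2 and 3 had 27324339 and 32909568, and the controls 18814876 to 22072654. The part of depth was not tested.

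After β-alanine, 23 of the 48 lysosomal transcripts rose and 4 fell (edgeR quasi-likelihood fit over the whole table, Benjamini-Hochberg adjusted p below 0.05). Across all 17331 genes 27.9% were called, 14.1% as higher and 13.8% as lower. Among members the share was 56.3%, with 47.9% higher and 8.33% lower. The members all lay between 3.94 and 687 CPM, and of the 12127 tested genes in that range 35.1% were called, 17.9% higher and 17.2% lower. The median log2 fold change was 0.14 over members and -0.003 over all tested genes, and the members ran from -0.40 for CTSH to 0.70 for ATP6V1G2. The 4 that fell, CTSF, CTSH, GAA and ASAH1, are all enzymes of the lumen. All 3 β-alanine libraries lay above all controls for 24 members and below them for 8. Over all tested genes those shares were 19.9% above and 19.2% below, and within the CPM range of the members 23.9% above and 22.3% below. With β-alanine library 1 left out, 25 members rose and 6 fell. Leaving out β-alanine library 2 gave 14 that rose and 3 that fell, and leaving out control library 2 gave 15 that rose and 4 that fell. The share of all genes called was not computed for these fits, so the changes in count are not read as particular to the members.

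**Figure D1:**
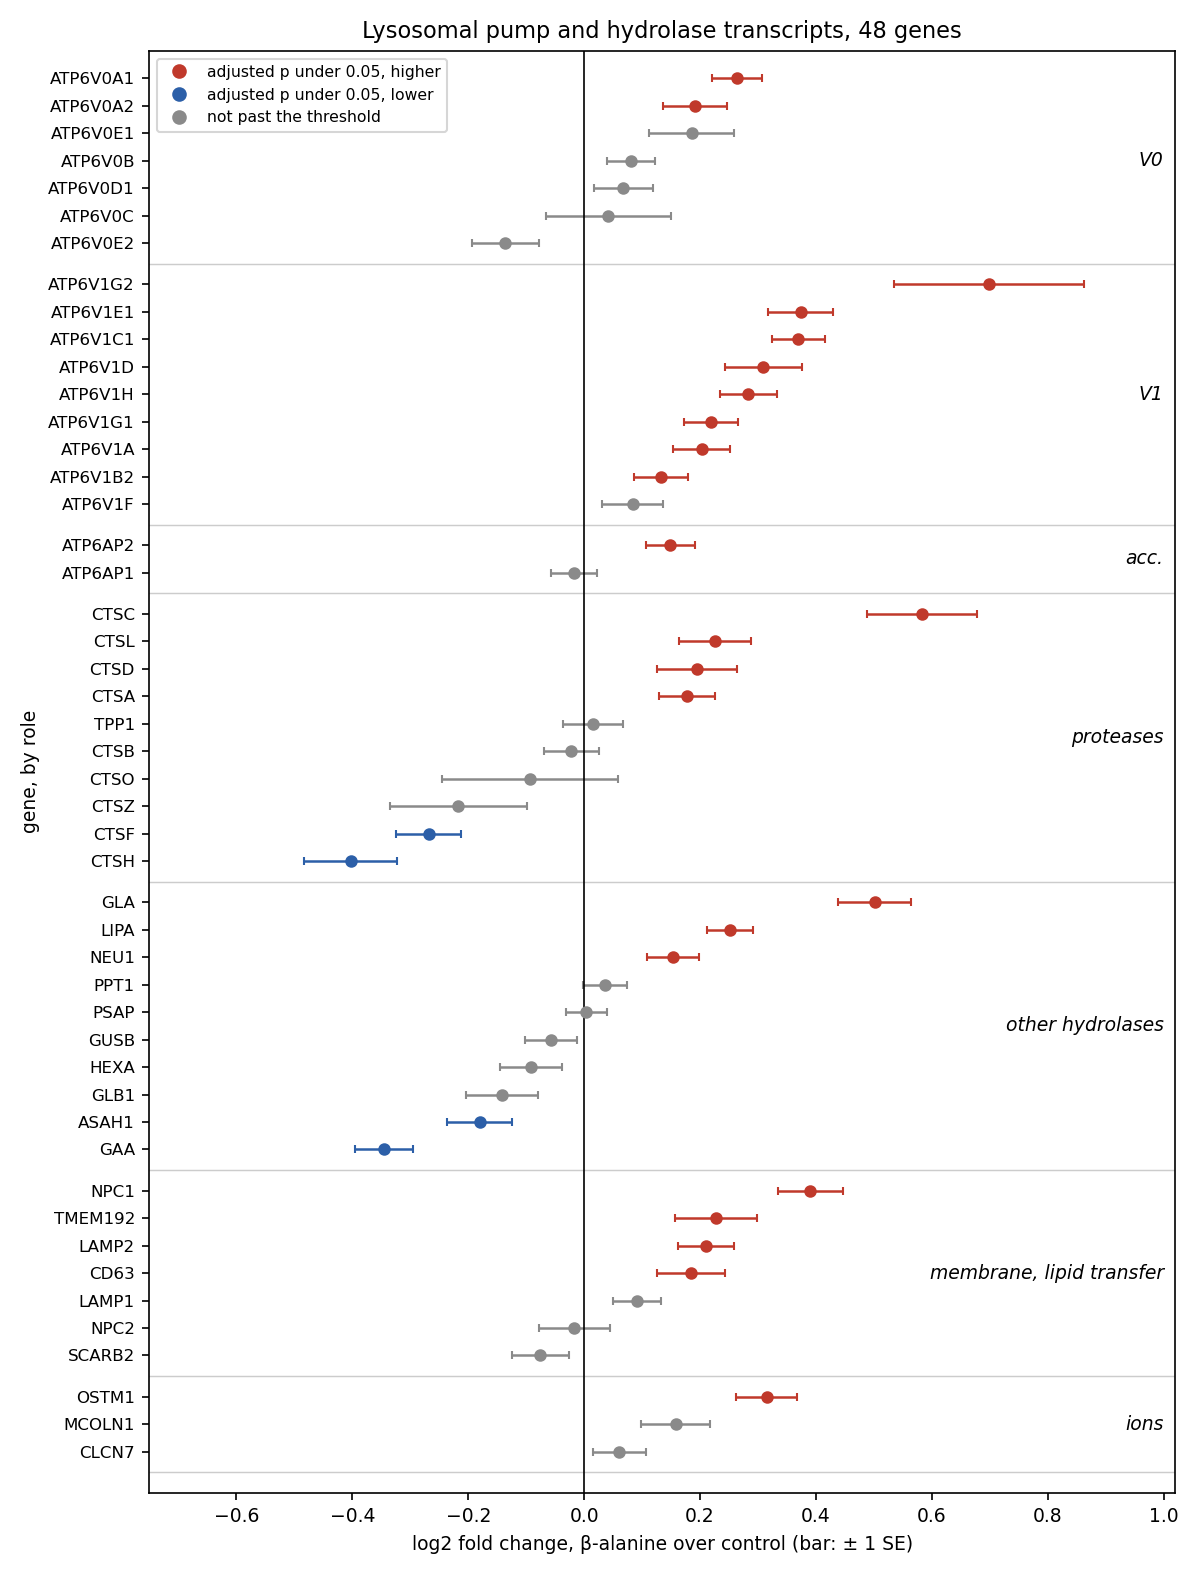
Log2 fold change of β-alanine over control for the 48 genes, by role and by size within a role, with bars of 1 standard error on each side. Red points passed the threshold as higher, blue as lower and grey did not pass. In the V1 sector 8 of 9 points are red, whereas the hydrolases and cofactors of the lumen spread to both sides of 0.

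The roles differed in the size of their mean shift. The mean log2 CPM of the 9 V1 subunits lay 0.19, 0.37 and 0.31 above the control mean in β-alanine libraries 1, 2 and 3, with the 3 controls within 0.01 of that mean. ATP6V1G2, a gene of low and uncertain count, was part of that V1 mean with 0.31, 0.93 and 0.72. The V1 medians in the same libraries were 0.24, 0.33 and 0.28. For the 7 V0 subunits the mean was 0.10 in β-alanine libraries 1, 2 and 3, with controls between -0.02 and 0.04. For the 20 hydrolases and cofactors of the lumen, the proteases included, it was 0.02, 0.02 and 0.01, with controls between -0.03 and 0.02. The means of this lumenal group lay close to the range of the controls, with β-alanine library 1 just above it. Even so, 11 of these 20 genes were called, 7 as higher and 4 as lower (55.0%, against 27.9% of all tested genes). The difference between roles was not tested.

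**Figure D2:**
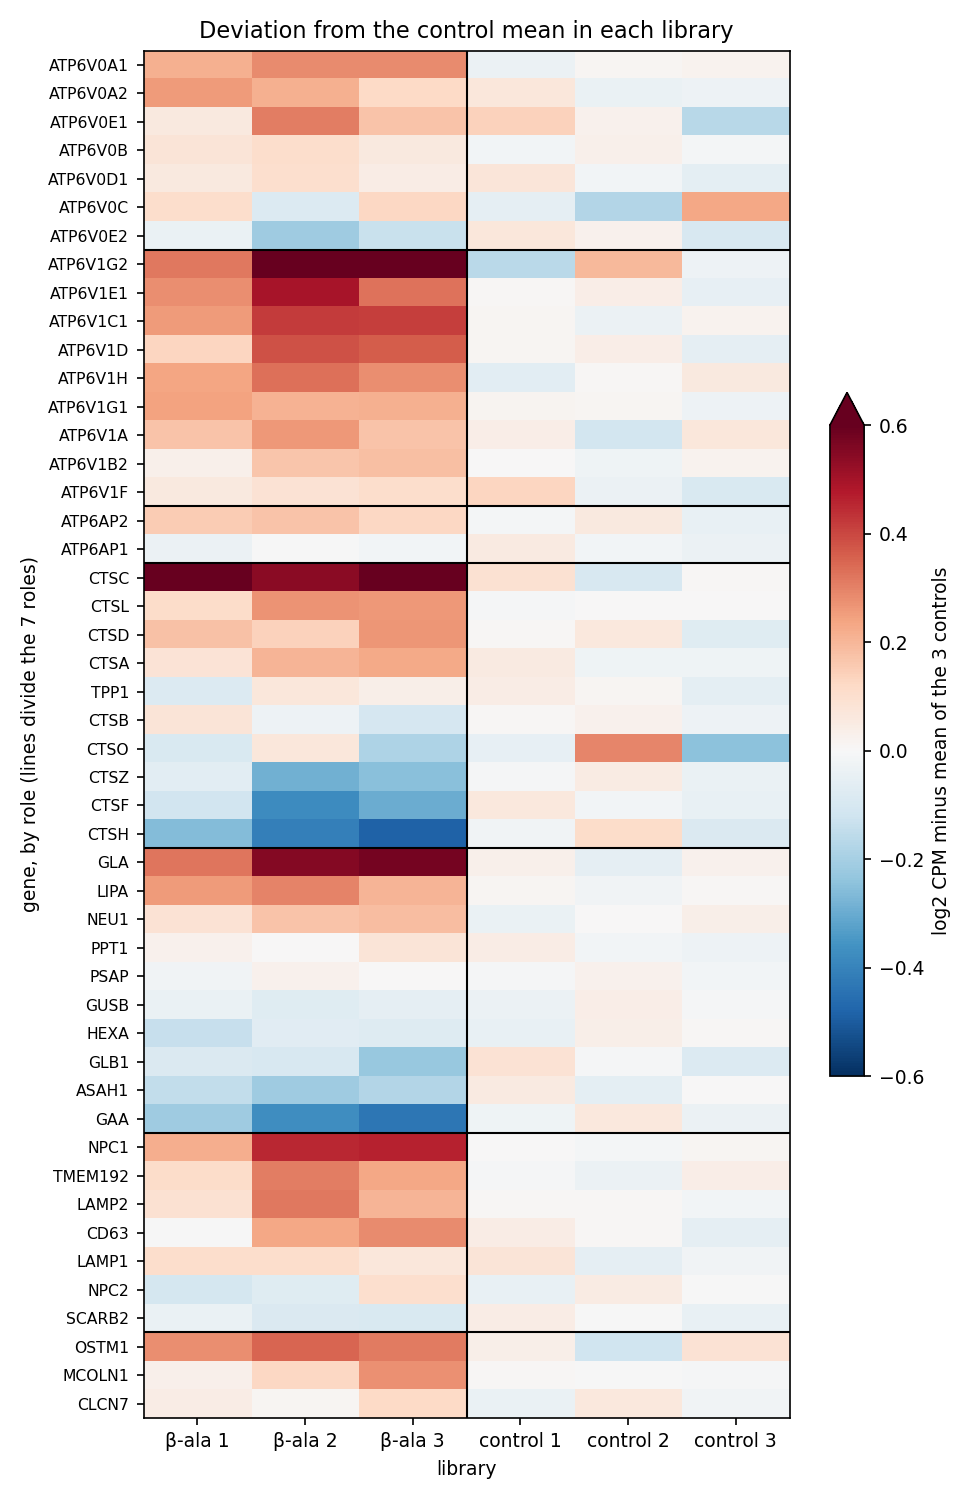
Log2 CPM of each gene in each of the 6 libraries minus the mean of the 3 controls, with β-alanine libraries on the left, genes ordered by role and colours limited at 0.6 on either side. V1 subunits are red in all 3 β-alanine libraries, with paler values in library 1 for most, and GAA, CTSF and CTSH are blue.

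Where a promoter was matched, its sequence shows whether a member carries the E-box of the CLEAR element. The sequences are printed because the genes that hold it moved in different ways. RefSeq promoters on GRCh38.p14 (250 bases before and 50 after the start) matched 37 of the 48 members. The members without a match include ATP6V1A, ATP6V1B2, ATP6V1C1, ATP6V1H and LAMP2, which rose, and ASAH1, which fell. The others were ATP6V0E1, CTSB, CTSO, HEXA and PSAP, which did not pass. Whether any of these holds the E-box is not known here. The letters TCACGTGA, a palindrome that reads the same on both strands, contain CACGTG. They occurred in 6 of the 37 matched members (16.2%), against 1.18% of all 27305 genes with a promoter, expressed here or not. The shorter CACGTG occurred in 13 of 37 (35.1%), against 8.77%. Many lysosomal genes are known to carry the element, and promoter letters do not depend on treatment. These shares therefore say nothing about β-alanine. Base composition differs between promoters, and its part was not tested. The 6 genes hold 9 copies, given 5′ to 3′ on the strand of the gene with the 8 letters in capitals:
ATP6V0D1, chr16:67481199-67481228, minus strand: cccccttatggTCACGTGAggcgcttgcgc
ATP6V1G1, chr9:114587699-114587728, plus strand: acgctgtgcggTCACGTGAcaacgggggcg
CTSA, chr20:45891298-45891327, plus strand: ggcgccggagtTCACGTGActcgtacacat
GAA distal, chr17:80101493-80101522, plus strand: gggaggccgcgTCACGTGAcccaccgcggc
GAA proximal, chr17:80101538-80101567, plus strand: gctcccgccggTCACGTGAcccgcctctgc
LAMP1 distal, chr13:113297199-113297228, plus strand: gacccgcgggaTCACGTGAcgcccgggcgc
LAMP1 proximal, chr13:113297226-113297255, plus strand: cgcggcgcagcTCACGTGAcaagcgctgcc
MCOLN1 distal, chr19:7522571-7522600, plus strand: accagaggcggTCACGTGAggggctctggg
MCOLN1 proximal, chr19:7522598-7522627, plus strand: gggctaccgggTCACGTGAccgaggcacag

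Of these 6 genes, ATP6V1G1 and CTSA rose, GAA fell, and ATP6V0D1, LAMP1 and MCOLN1 did not pass. The motif begins between 2 and 77 bases before the annotated start in these copies. To check orientation, the last 30 bases of each promoter were sought in transcripts of the same gene. They were found for 5 of the 6. GAA, with one copy 77 and another 32 bases before its start, had the second largest fall among members. By call, the 8 letters were in the promoters of 2 of 18 matched members that rose, 1 of 3 that fell and 3 of 16 that did not pass. A match describes the letters and does not show that a factor binds there.

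In the cytosolic V1 sector, 8 of 9 subunits rose (88.9%, against 14.1% of all tested genes and 17.9% within the CPM range of the members). ATP6V1C1 encodes subunit C, which joins the stalks of V1 to V0 and is released when the pump comes apart. It had 157, 177 and 176 CPM in β-alanine libraries 1, 2 and 3, and 133, 129 and 134 CPM in control libraries 1, 2 and 3. The groups did not overlap, and its log2 change of 0.37 ± 0.05 (SE) had the smallest p among members (edgeR adjusted p = 4.33e-06, Benjamini-Hochberg). ATP6V1E1 (chr22:17592136-17628822 on GRCh38.p14, minus strand), a subunit of the peripheral stalks, had 69.5, 80.8 and 71.7 CPM after β-alanine and 57.5, 58.9 and 55.4 CPM in controls. All β-alanine values were again above all controls, a log2 change of 0.37 ± 0.06 (edgeR adjusted p = 3.67e-05, Benjamini-Hochberg). ATP6V1H, a regulatory subunit that links V1 to V0, had 76.0, 81.1 and 78.3 CPM after β-alanine and 61.7, 64.8 and 67.1 CPM in controls. Its log2 change was 0.28 ± 0.05 (edgeR adjusted p = 0.000175, Benjamini-Hochberg).

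In the catalytic ring both subunits rose. ATP6V1A, the subunit that hydrolyses ATP, averaged 109.6 ± 3.97 CPM after β-alanine and 95.4 ± 6.20 CPM in controls (SD, n = 3 each), a log2 change of 0.20 ± 0.05 (SE). ATP6V1B2, its non-catalytic partner in the ring, averaged 102 ± 5.86 CPM after β-alanine and 93.8 ± 1.61 CPM in controls, a log2 change of 0.13 ± 0.05. ATP6V1D, part of the central rotor, rose by a log2 of 0.31 ± 0.07. ATP6V1F, the other rotor subunit of the list, had 76.2, 77.9 and 78.7 CPM after β-alanine and 80.1, 71.4 and 68.8 CPM in controls, so its groups overlapped and it did not pass (log2 change 0.08 ± 0.05). The call for ATP6V1A was lost without control library 2 (edgeR adjusted p = 0.0564, Benjamini-Hochberg). That for ATP6V1B2 was lost with the DESeq2 Wald test (adjusted p = 0.0792) and without any library other than β-alanine library 1 (edgeR adjusted p between 0.0750 and 0.198, Benjamini-Hochberg).

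Subunit G of the peripheral stalks has a widely expressed form, ATP6V1G1, and a form known from neurons, ATP6V1G2. ATP6V1G1 had 72.5, 70.8 and 71.0 CPM after β-alanine and 62.1, 61.9 and 60.0 CPM in controls, with no overlap and a log2 change of 0.22 ± 0.05 (edgeR adjusted p = 0.00131, Benjamini-Hochberg). ATP6V1G2 had 3.76, 5.76 and 4.97 CPM after β-alanine and 2.703, 3.46 and 2.96 CPM in controls, a log2 change of 0.70 ± 0.16 (edgeR adjusted p = 0.00282, Benjamini-Hochberg). Of the exonic bases of ATP6V1G2, 23.1% also lie in other annotated genes, among them its read-through with DDX39B, and with strand handling not given its counts are uncertain. Within each library the ratio of ATP6V1G2 to ATP6V1G1 CPM was 0.0519, 0.0814 and 0.0700 after β-alanine and 0.0436, 0.0559 and 0.0493 in controls, so the ratios overlapped.

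**Figure D3:**
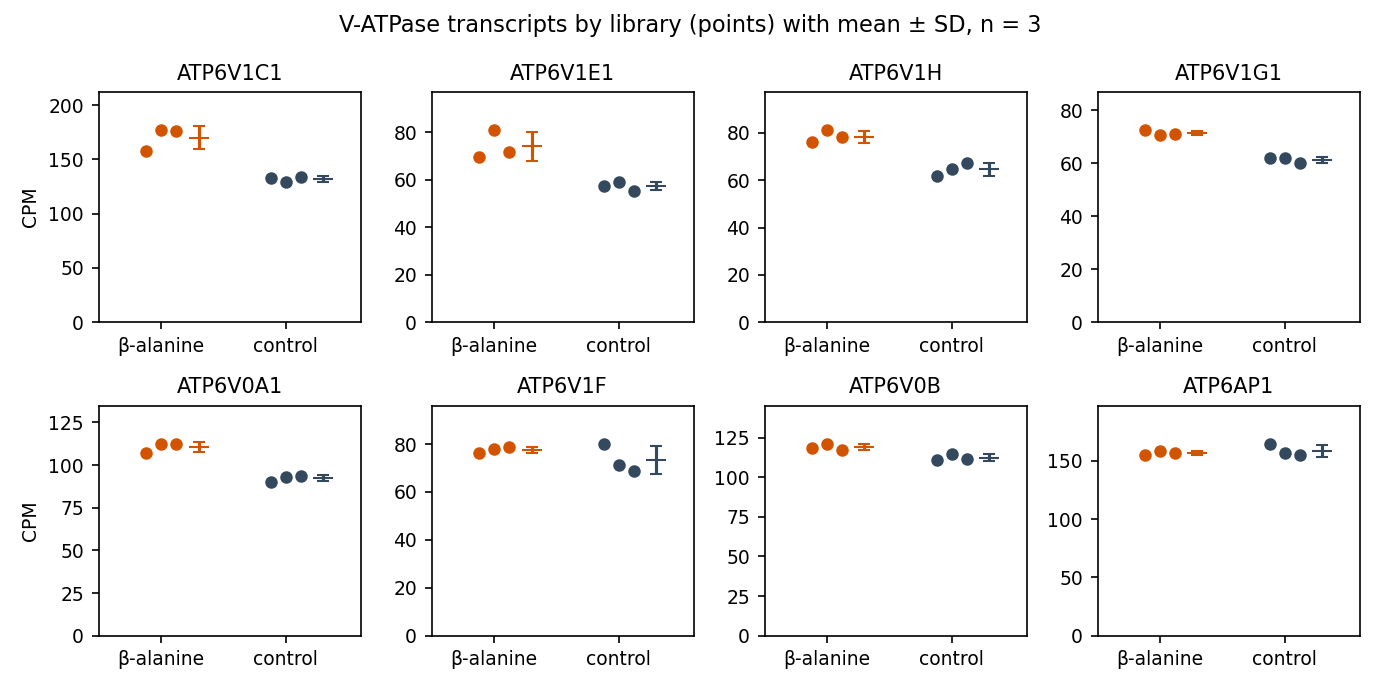
CPM of 8 V-ATPase transcripts in each library, β-alanine left of control, with the mean and SD of 3 libraries beside the points and axes from 0. For ATP6V1C1, ATP6V1E1, ATP6V1H, ATP6V1G1, ATP6V0A1 and ATP6V0B all β-alanine points lie above all control points, and for ATP6V1F and ATP6AP1 they overlap.

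In the membrane sector V0, 2 of 7 listed subunits rose. That is 28.6%, against 14.1% of all tested genes and 17.9% within the CPM range of the members. In either direction the share called was also 28.6%, against 27.9% and 35.1%, so it is near that background. Both that rose are forms of the large subunit a, which carries the proton half-channels and helps direct the pump to its membrane. TCIRG1, a form of subunit a outside the 48, had 213 CPM after β-alanine and 210 CPM in controls and did not pass. ATP6V0A1 had 107, 112 and 112 CPM after β-alanine and 90.1, 93.1 and 93.8 CPM in controls, with no overlap and a log2 change of 0.26 ± 0.04 (edgeR adjusted p = 0.000111, Benjamini-Hochberg). ATP6V0A2 had 55.5, 53.9 and 50.4 CPM after β-alanine and 48.8, 45.3 and 45.4 CPM in controls, a log2 change of 0.19 ± 0.06 with no overlap. Its call was lost without β-alanine library 2 (edgeR adjusted p = 0.0612), control library 2 (0.0787) or control library 3 (0.0646, all Benjamini-Hochberg). The ratio of ATP6V0A1 to ATP6V0A2 CPM was 1.93, 2.09 and 2.23 after β-alanine and 1.85, 2.06 and 2.06 in controls, again overlapping.

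The other V0 subunits gave smaller or less even differences. ATP6V0B, a proteolipid of the rotating ring, had 119, 121 and 117 CPM after β-alanine and 111, 115 and 111 CPM in controls. These values did not overlap, but the log2 change of 0.08 ± 0.04 did not pass (edgeR adjusted p = 0.154, Benjamini-Hochberg). ATP6V0D1, which couples the ring to the V1 rotor and holds the E-box printed above, had a log2 change of 0.07 ± 0.05. ATP6V0C, the main proteolipid of the ring, had 11.4, 10.03 and 11.5 CPM after β-alanine and 10.2, 9.37 and 12.4 CPM in controls. Of its exonic bases, 72.1% also lie in other annotated genes, so its level is uncertain.

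The paralogs of the small subunit e lay on opposite sides of 0 without passing. ATP6V0E1 had 45.9, 54.4 and 49.5 CPM after β-alanine and 48.4, 44.8 and 39.2 CPM in controls (log2 change 0.19 ± 0.07, edgeR adjusted p = 0.0696, Benjamini-Hochberg). ATP6V0E2 had 49.4, 43.8 and 46.2 CPM after β-alanine and 53.1, 51.7 and 47.5 CPM in controls (log2 change -0.14 ± 0.06, edgeR adjusted p = 0.0884, Benjamini-Hochberg). For both genes β-alanine library 1 overlapped a single control. Their ratio within a library did not overlap, at 0.929, 1.24 and 1.07 after β-alanine and 0.911, 0.868 and 0.825 in controls. With 3 libraries against 3 the exact two-sided permutation test cannot go below p = 0.10, which it reached here, and over the 6 pairs of partner genes compared its Benjamini-Hochberg adjusted value was 0.20. ATP6V0E2 overlaps ATP6V0E2-AS1, and 19.7% of its exonic bases lie in other genes, so its counts are uncertain. Without β-alanine library 1, ATP6V0E1 (edgeR adjusted p = 0.00855) and ATP6V0E2 (0.00777, both Benjamini-Hochberg) both passed. ATP6V0E1 also passed without control library 1 (0.0214), with library totals (0.0388), with no low-count filter (0.00895) and with a replicate block (0.0279), and ATP6V0E2 without control library 3 (0.0474, edgeR adjusted p, Benjamini-Hochberg).

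Of the accessory proteins, ATP6AP2, known as the prorenin receptor and needed for assembly of the pump, had 125, 126 and 122 CPM after β-alanine and 111, 117 and 109 CPM in controls. It rose by a log2 of 0.15 ± 0.04 with no overlap (edgeR adjusted p = 0.0118, Benjamini-Hochberg). The call was lost without β-alanine library 2 (edgeR adjusted p = 0.0646) or control library 3 (0.0813, both Benjamini-Hochberg). ATP6AP1, an accessory protein built into the V0 ring, had 155, 158 and 157 CPM after β-alanine and 164, 157 and 155 CPM in controls, a log2 change of -0.02 ± 0.04 with overlapping groups.

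Levels can be compared between genes only per length, here as CPM per kb of annotated exon. On that scale the V1 subunits ran from 2.25 after β-alanine and 1.42 in controls for ATP6V1G2 to 98.4 after β-alanine and 93.1 in controls for ATP6V1F. The V0 subunits ran from 3.88 after β-alanine and 3.39 in controls for ATP6V0A2 to 33.6 after β-alanine and 31.8 in controls for ATP6V0B. Over all members the highest was PSAP, at 212 in both groups, and the lowest CTSC, at 1.15 after β-alanine and 0.766 in controls. Exon length here is the union over all annotated transcripts, which lowers the value of genes with long unused exons.

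Of the 10 proteases, 4 rose and 2 fell (60.0% called, against 27.9% of all tested genes and 35.1% within the CPM range of the members). CTSC (chr11:88293592-88337736, minus strand), cathepsin C or dipeptidyl peptidase I, which activates serine proteases of immune cells, had 13.3, 12.7 and 13.3 CPM after β-alanine and 9.30, 8.19 and 8.77 CPM in controls. The groups lay well apart, with a log2 change of 0.58 ± 0.09 (edgeR adjusted p = 9.48e-05, Benjamini-Hochberg). CTSH, an aminopeptidase, had 19.0, 17.1 and 16.3 CPM after β-alanine and 22.4, 24.6 and 21.4 CPM in controls, a log2 change of -0.40 ± 0.08 (edgeR adjusted p = 0.000684, Benjamini-Hochberg). CTSF, a cysteine protease, had 89.9, 75.1 and 79.3 CPM after β-alanine and 102, 96.3 and 94.4 CPM in controls, a log2 change of -0.27 ± 0.06 (edgeR adjusted p = 0.00122, Benjamini-Hochberg). For both, every β-alanine library lay below every control.

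CTSA, the carboxypeptidase that also protects neuraminidase and β-galactosidase in a complex, had 84.3, 91.7 and 93.3 CPM after β-alanine and 82.7, 78.2 and 78.3 CPM in controls. Its log2 change was 0.18 ± 0.05, with no overlap. The main endoproteases CTSL and CTSD rose by log2 values of 0.23 ± 0.06 and 0.19 ± 0.07. CTSB, the other widely expressed cysteine cathepsin, averaged 94.6 ± 5.95 CPM after β-alanine and 95.6 ± 1.85 CPM in controls (SD, n = 3 each) and did not pass. Neither did TPP1 (log2 change 0.02), which removes tripeptides, nor the cysteine cathepsins CTSO (-0.09) and CTSZ (-0.22), although all 3 β-alanine values of CTSZ lay below the controls. The call for CTSA was lost without β-alanine library 2 (edgeR adjusted p = 0.0507), β-alanine library 3 (0.0672) or control library 2 (0.0591). That for CTSL was lost without β-alanine library 2 (0.0633) or 3 (0.0562), and that for CTSD with the DESeq2 Wald test (adjusted p = 0.0970) and without any library other than β-alanine library 1 (edgeR adjusted p between 0.0594 and 0.218, Benjamini-Hochberg throughout). Of the exonic bases, 52.7% in CTSD and 28.5% in CTSA also belong to other annotated genes, which leaves both counts uncertain.

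Of the 10 other hydrolases and cofactors, 3 rose and 2 fell. In either direction 5 of 10 were called, against 27.9% of all tested genes and 35.1% within the CPM range of the members. GLA (chrX:101397803-101407925, minus strand), α-galactosidase A, which removes terminal galactose from globotriaosylceramide and is deficient in Fabry disease, had 48.3, 56.6 and 57.6 CPM after β-alanine and 39.5, 37.2 and 39.3 CPM in controls. The groups did not overlap, and the log2 change was 0.50 ± 0.06 (edgeR adjusted p = 5.50e-06, Benjamini-Hochberg). LIPA, the acid lipase that frees cholesterol and fatty acids from lipoprotein lipids, had 197, 203 and 190.4 CPM after β-alanine and 167, 163 and 166 CPM in controls, a log2 change of 0.25 ± 0.04 (edgeR adjusted p = 6.84e-05, Benjamini-Hochberg). GAA, the acid α-glucosidase that degrades glycogen and is deficient in Pompe disease, had 141, 127 and 121 CPM after β-alanine and 161, 171 and 160.0 CPM in controls. It fell by 0.35 ± 0.05 on the log2 scale (edgeR adjusted p = 3.80e-05, Benjamini-Hochberg), with β-alanine library 1 nearest to the controls.

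NEU1, the sialidase held in a complex with CTSA, had 91.3, 96.9 and 97.9 CPM after β-alanine and 83.7, 86.1 and 88.2 CPM in controls, a log2 change of 0.15 ± 0.05. ASAH1, acid ceramidase, had 39.2, 37.5 and 38.3 CPM after β-alanine and 45.04, 41.7 and 43.4 CPM in controls, a log2 change of -0.18 ± 0.06. Both were separated between the groups, and both lost their calls when single libraries were left out. For NEU1 these were β-alanine libraries 2 (edgeR adjusted p = 0.0710) and 3 (0.0875) and control libraries 1 (0.0701) and 2 (0.0586), and for ASAH1 β-alanine libraries 2 (0.0955) and 3 (0.0570) and control libraries 1 (0.103) and 3 (0.0546, Benjamini-Hochberg throughout). GLB1, β-galactosidase and the third partner of that complex, averaged 37.1 ± 1.99 CPM after β-alanine and 40.8 ± 2.41 CPM in controls (SD, n = 3 each) and did not pass. Without β-alanine library 1 it did (log2 change -0.17, edgeR adjusted p = 0.0230, Benjamini-Hochberg).

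The remaining hydrolase and cofactor members did not pass. HEXA, the α subunit of β-hexosaminidase, had a log2 change of -0.09 ± 0.05, and GUSB, β-glucuronidase, of -0.06 ± 0.04, each with all β-alanine values below all controls. PPT1, which removes fatty acids from proteins, had 0.04 ± 0.04. PSAP, the precursor of the saposins that present sphingolipids to their hydrolases, was level, at 687 ± 10.9 CPM after β-alanine and 686 ± 10.3 CPM in controls (SD, n = 3 each). Over the 20 hydrolases and cofactors of the lumen, proteases included, all 3 β-alanine libraries lay above all controls for 7 genes and below them for 8. These are 35.0% and 40.0%, against 19.9% and 19.2% of all tested genes.

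**Figure D4:**
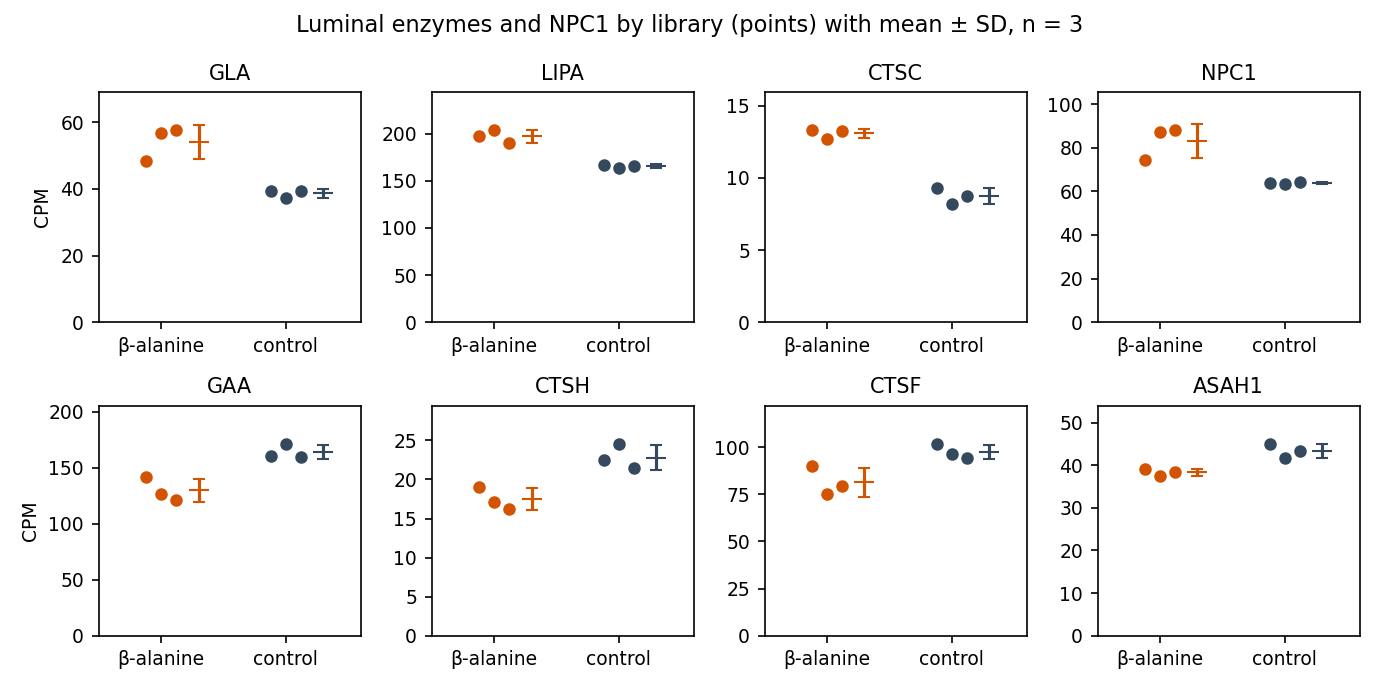
CPM of 7 enzymes of the lumen and the membrane protein NPC1 in each library, β-alanine left of control, with the mean and SD of 3 libraries beside the points and axes from 0. GLA, LIPA, CTSC and NPC1 are higher after β-alanine and GAA, CTSH, CTSF and ASAH1 are lower, with no overlap in any of the 8 panels.

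Of the 7 membrane and lipid transfer proteins, 4 rose (57.1%, against 14.1% of all tested genes and 17.9% within the CPM range of the members). NPC1 spans the limiting membrane and takes over cholesterol from the soluble carrier NPC2. NPC1 had 74.2, 87.3 and 87.9 CPM after β-alanine and 63.9, 63.4 and 64.4 CPM in controls, a log2 change of 0.39 ± 0.06 (edgeR adjusted p = 2.91e-05, Benjamini-Hochberg). NPC2 had 40.2, 41.1 and 46.4 CPM after β-alanine and 41.9, 44.8 and 43.2 CPM in controls, with overlapping groups and a log2 change of -0.02 ± 0.06. The ratio of NPC1 to NPC2 CPM in a library was 1.85, 2.12 and 1.90 after β-alanine and 1.53, 1.42 and 1.49 in controls (exact two-sided permutation p = 0.10, the smallest possible, and 0.20 adjusted over the 6 pairs).

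The LAMP proteins make up much of the glycoprotein coat of the membrane, and LAMP2 also serves autophagy. LAMP2 had 138, 161 and 149 CPM after β-alanine and 130.1, 130.1 and 128 CPM in controls, a log2 change of 0.21 ± 0.05 with no overlap (edgeR adjusted p = 0.00240, Benjamini-Hochberg). LAMP1 had 194, 194 and 189 CPM after β-alanine and 190.0, 174 and 178 CPM in controls, which overlapped, and its log2 change of 0.09 ± 0.04 did not pass (edgeR adjusted p = 0.104, Benjamini-Hochberg). LAMP1 passed with library totals (adjusted p = 0.0448) and without control library 1 (0.0443, both edgeR with Benjamini-Hochberg adjustment). The ratio of LAMP2 to LAMP1 overlapped between the groups, at 0.710 to 0.831 after β-alanine and 0.685 to 0.749 in controls.

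TMEM192, a membrane protein used as a tag to purify lysosomes, had 24.0, 27.5 and 26.1 CPM after β-alanine and 22.1, 21.7 and 22.9 CPM in controls. Its groups did not overlap, and it rose by a log2 of 0.23 ± 0.07, as did the tetraspanin CD63 by 0.18 ± 0.06. CD63 had 106, 125 and 129.6 CPM after β-alanine and 110.1, 107 and 103 CPM in controls, so β-alanine library 1 lay within the controls. SCARB2, also known as LIMP-2, an abundant protein of the lysosomal membrane, had a log2 change of -0.08 ± 0.05 and did not pass. The call for TMEM192 was lost when β-alanine library 2 (edgeR adjusted p = 0.132), β-alanine library 3 (0.0641) or one of the controls was left out, namely control library 1 (0.0569) or 2 (0.0934), and that for CD63 when β-alanine library 2 (0.123), β-alanine library 3 (0.148) or one of the controls was left out, namely control library 2 (0.101) or 3 (0.122, Benjamini-Hochberg throughout).

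OSTM1 is the subunit that stabilises CLCN7, the chloride-proton exchanger of lysosomes. OSTM1 had 78.7, 82.8 and 80.5 CPM after β-alanine and 66.4, 59.7 and 69.0 CPM in controls, a log2 change of 0.32 ± 0.05 with no overlap (edgeR adjusted p = 0.000128, Benjamini-Hochberg). CLCN7 had 107, 105 and 113 CPM after β-alanine and 101, 109 and 102 CPM in controls, with overlap and a log2 change of 0.06 ± 0.05. Their ratio, OSTM1 over CLCN7, was 0.734, 0.790 and 0.713 after β-alanine and 0.658, 0.550 and 0.674 in controls (exact two-sided permutation p = 0.10, the smallest possible, and 0.20 adjusted over the 6 pairs). MCOLN1, the calcium channel of lysosomes whose promoter holds 2 of the E-boxes above, had 44.1, 47.0 and 52.05 CPM after β-alanine and 43.3, 43.1 and 42.9 CPM in controls. All β-alanine values were higher, but it lay just outside the threshold (log2 change 0.16 ± 0.06, edgeR adjusted p = 0.0527, Benjamini-Hochberg). It passed without β-alanine library 1 (edgeR adjusted p = 0.00256), with library totals (0.0389), with no low-count filter (0.0365) and with a replicate block (0.0494, Benjamini-Hochberg throughout).

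**Figure D5:**
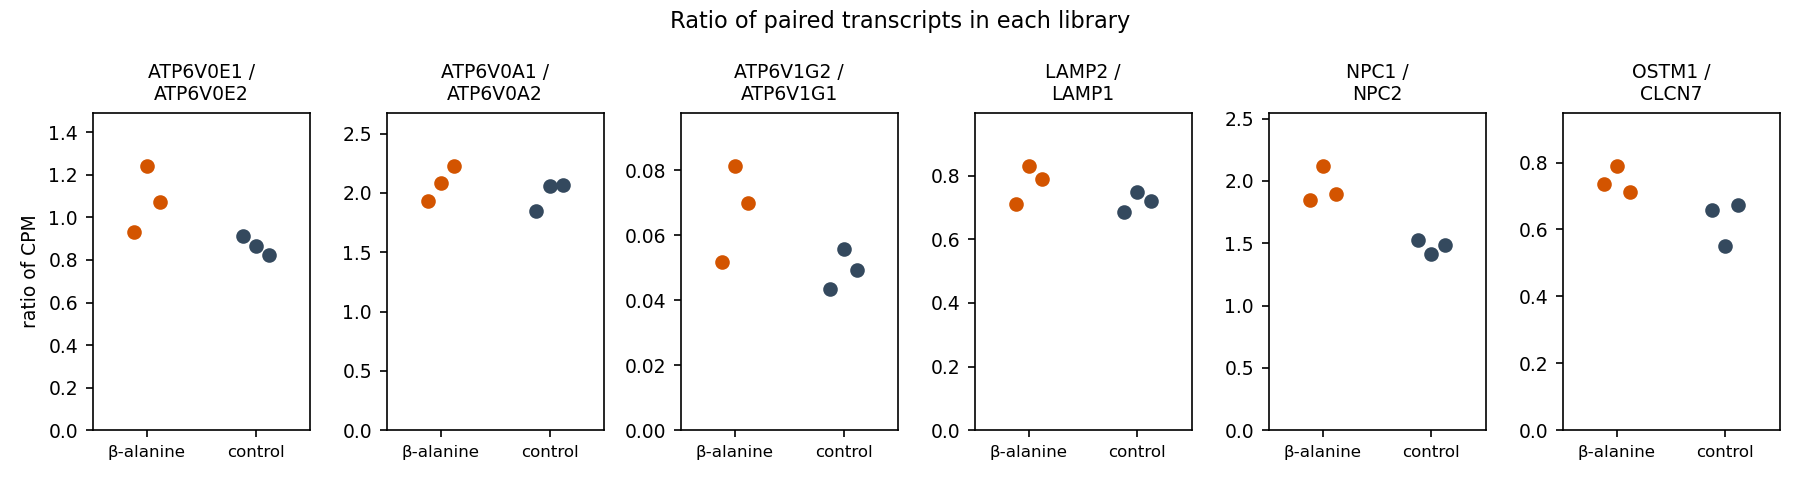
Ratio of the CPM of 2 partner genes in each library, β-alanine left of control, for 6 pairs with axes from 0. The ratios of ATP6V0E1 to ATP6V0E2, NPC1 to NPC2 and OSTM1 to CLCN7 do not overlap between the groups, and those of the other 3 pairs do.

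The wider set of lysosomal genes was described from a list of 94 symbols outside the 48. The table held 91 of these, 84 were tested, 18 rose and 12 fell, which is 35.7% of those tested, against 27.9% of all genes and 35.1% of genes within the CPM range of the 48 members, so the share is near that background. The median log2 change was 0.01. The 4 tested V-ATPase subunits listed as forms of other tissues did not pass. Among them TCIRG1 was well expressed here, at 213 CPM after β-alanine and 210 CPM in controls, and had a log2 change of 0.02. The largest log2 change in either direction was 0.65, for ATP6V0D2, which was under 1 CPM in every library. Of 10 assembly and regulatory factors of the pump, CCDC115 rose, and DMXL2, a rabconnectin that promotes assembly of V1 on V0, fell by 0.20 ± 0.04 (edgeR adjusted p = 0.00148, Benjamini-Hochberg), as did ATP6AP1L. The call for CCDC115 was lost with the DESeq2 Wald test (adjusted p = 0.0517), and when β-alanine library 2 (0.129), β-alanine library 3 (0.0833) or one of the controls was left out, namely control library 1 (0.116). ATP6AP1L lost its call when β-alanine library 2 (edgeR adjusted p = 0.126), β-alanine library 3 (0.111) or one of the controls was left out, namely control library 2 (0.0589) or 3 (0.1001, Benjamini-Hochberg throughout).

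Among 29 tested hydrolases and cofactors of that list, 8 rose and 7 fell, so these too moved in both directions. The share called was 51.7%, against 27.9% of all tested genes and 35.1% within the CPM range of the members. HGSNAT, which acetylates heparan sulfate for its breakdown, averaged 184 ± 8.62 CPM after β-alanine and 231 ± 4.32 CPM in controls, a log2 change of -0.33 ± 0.04 (edgeR adjusted p = 4.81e-06, Benjamini-Hochberg). NAAA, an acid amidase related to ASAH1, averaged 8.37 ± 1.31 CPM after β-alanine and 13.6 ± 1.58 CPM in controls, a log2 change of -0.73 ± 0.11. ACP2, lysosomal acid phosphatase, changed by -0.47 ± 0.08. In these 3 genes the groups did not overlap.

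Of 22 tested membrane proteins and transporters of the wider list, 5 rose and 2 fell (31.8% called). Among them was the sialic acid exporter SLC17A5, with a rise of 0.32 ± 0.06 on the log2 scale (edgeR adjusted p = 0.000793, Benjamini-Hochberg). Of 13 genes for sorting to the lysosome, 3 rose and 1 fell (30.8% called). Both shares are near those of all tested genes (27.9%) and of genes within the CPM range of the members (35.1%). SORT1, a sorting receptor, averaged 104 ± 2.18 CPM after β-alanine and 90.4 ± 5.18 CPM in controls, a log2 change of 0.20 ± 0.05 (edgeR adjusted p = 0.00292, Benjamini-Hochberg). The counts for the wider list shrank to 7 higher and 7 lower without β-alanine library 2, to 11 and 6 on leaving out β-alanine library 3 and to 10 and 6 on leaving out control library 2. They were 11 higher and 8 lower without control library 3, and 11 and 7 with the DESeq2 Wald test. For these fits too the share of all genes called was not computed.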

How the data were processed

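One table of unnormalised read counts, keyed by gene symbol, was deposited by the authors for the 6 libraries. The submitters' processing notes list STAR 2.7.3a, Trimmomatic 0.39, featureCounts 2.0.1, bcl2fastq and DESeq2, with GRCh38. Settings, gene annotation and strand handling were not given in the sources used here, so overlapping and antisense genes cannot be told apart. Genes were filtered with filterByExpr and scaled by TMM, and the whole table was fitted in edgeR 4.0.16 (R 4.3.3) by quasi-likelihood with robust dispersion shrinkage, two-sided, Benjamini-Hochberg adjusted over 17331 genes, threshold 0.05. CPM uses TMM-scaled totals. The fit was tested on simulated data. Alternatives were other scalings and filters, DESeq2 1.42.0, limma-voom (limma 3.58.1), no robust shrinkage, a replicate block, a threshold of 0.01 and leaving out each library. Exon overlaps and lengths came from GENCODE release 29. Exonic overlap with another gene touched 23 of 48 members, at 20% or more of their exonic bases in 6: ATP6V0C, ATP6V1F, ATP6V1G2, CTSA, CTSD and PPT1. The members, lists and the rule for named genes were chosen with earlier results of these data known. By that rule, values per library are given for up to 4 called members of each role with the smallest p, members called against the majority, and 6 partner pairs; the others named were chosen after their values were seen. In the wider list it took up to 4 called genes in each direction. Some genes that the rules or marker lists took are not reported here. Figures used matplotlib 3.10.9 in Python 3.11.15.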

Additional observations from a re-analysis of the deposited data

How the results depend on the processing

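The counts of members that rose and fell were 23 and 4, and under other scalings, filters, tests and no robust shrinkage they stayed between 21 and 26 higher with 4 lower, and at a threshold of 0.01 they were 16 and 3. Leaving out 1 library gave 14 to 25 higher and 3 to 6 lower members, and 6 to 8 of the 9 V1 subunits higher. The share of all genes called was not computed for any of the alternatives. Of the 27 called members, 16 held without any single library, and 11 lost the call without at least 1 (adjusted p between 0.0507 and 0.218). In the wider list, 18 rose and 12 fell, against 11 and 7 with the DESeq2 Wald test, 9 and 6 at a threshold of 0.01, and 7 to 23 and 6 to 13 when a library was left out. For that list the lower count was 8 with library totals or no low-count filter.

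No called member changed direction under any alternative run. Of members near 0 that were not called, the log2 change turned to 0.00086 for NPC2 with library totals and -0.0032 for PSAP with at least 10 counts in every library. Leaving out a library gave log2 changes of -0.050 to 0.16 for ATP6V0C, -0.0392 to 0.0098 for ATP6AP1, -0.0702 to 0.0181 for CTSB, -0.21 to 0.0757 for CTSO, -0.0170 to 0.0475 for TPP1, -0.0088 to 0.0149 for PSAP and -0.0924 to 0.0135 for NPC2. The causes were not tested.

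Libraries with the same replicate number deviated together with correlations of only 0.0496, 0.00365 and 0.0716, so the numbers were not taken to pair them, although 5 of 6 libraries correlated best with their own number. With the replicate block, 25 members rose and 4 fell, 8 V1 subunits rose, and 18 genes of the wider list rose and 12 fell.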
